A study of Mus musculus with 11 samples.

Results

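Myeloid, mast cell and granule genes were followed through the DN2 and DN3 stages of thymocyte development. The set was the 10 genes Mpo, Cpa3, Lyz2, Tyrobp, Fcer1g, Cst7, Csf1r, Itgam, Napsa and Emilin2, listed by name as genes that early thymocytes still transcribe. Estimated read counts were summed over all transcripts of each gene in every library, and all 10 were among the 13780 genes that passed the filter on low counts, out of 35975 genes with matched transcripts. The study compared thymocytes of C57BL/6J wild-type (WT) mice with thymocytes of Arpp21-/- (KO) mice, which lack an RNA-binding protein. There were 4 groups, with 3 libraries of DN2 WT, 2 of DN2 KO, 3 of DN3 WT and 3 of DN3 KO cells. All cells were untreated and were sorted by flow cytometry, and the stages are CD4- CD8- steps before and at rearrangement of the T cell receptor β locus. The KO mice came from 1 line, in which exon 5 of Arpp21 was excised with CRISPR guides, a deletion that shifts the reading frame of the long isoform and does not remove the short isoform. Age was not given per library, and the study's methods describe animals of both sexes and different ages matched between genotypes. The labels do not say whether each library came from a separate mouse, so p values measure only the spread between these libraries.

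Progenitors that enter the thymus are not yet bound to the T cell fate, and DN2 cells still transcribe genes of the myeloid and mast cell programmes that are shut off as cells commit to the T lineage at the end of DN2. Granules of neutrophil and mast cell precursors hold enzymes such as myeloperoxidase (Mpo), carboxypeptidase A3 (Cpa3) and lysozyme (Lyz2). Tyrobp (DAP12) and Fcer1g (the Fc receptor γ chain) are adaptors with an ITAM, a cytoplasmic tyrosine motif through which receptors without a signalling tail recruit the kinases Syk and Zap70. Cst7 (cystatin F) inhibits lysosomal cysteine proteases and Napsa (napsin A) is an aspartic protease. Csf1r is the receptor for the macrophage growth factor M-CSF, Itgam (CD11b) is the α chain of the integrin Mac-1, and Emilin2 is a glycoprotein of the extracellular matrix.

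Depth was 14531762 to 63109504 estimated counts per library, with DN2 KO2 the deepest, and values are given as CPM, counts divided by a library size scaled by TMM, unless TPM, which corrects for transcript length, is named. A library with 0 counts of a gene allows up to 3 counts, which is 0.0802 to 0.242 CPM and covers counting error only. DN2 KO2 stood apart, with correlations of log2 CPM over genes (Pearson's r) of 0.814 to 0.837 with the other DN2 libraries, which had 0.945 to 0.962 among themselves, and DN3 KO3 did so less, with 0.912 to 0.932 against 0.972 to 0.979. Arpp21, the targeted gene, had 125 to 183 CPM in DN2 WT, 86.9 and 28.5 CPM in DN2 KO1 and KO2, 312 to 386 CPM in DN3 WT and 142 to 335 CPM in DN3 KO, but a sum over whole transcripts does not check the loss of 1 exon. The stage labels were checked in WT with 8 genes of the DN3 stage, of which 6 were higher in DN3 WT than in DN2 WT. Among them was Ptcra, the pre-T cell receptor α chain, with 1.00 to 2.96 against 365 to 436 CPM. Summed over 8 genes of the DN2 stage, DN2 KO2 had 418 CPM, against 2434 to 3179 CPM in DN2 WT. Kit had 66.6 CPM there against 446 to 512 CPM in DN2 WT, while Mpzl2 was above every DN2 WT library. Of the DN3 genes, Ptcra (11.7 CPM), Cd3d and Lat were above every DN2 WT library in DN2 KO2, and Rag1, Notch3 and Cd3e below. The stage of DN2 KO2 was not tested.

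The windows before the starts of 2 of the genes are shown because both fell from DN2 to DN3 and their RefSeq start coincides with the annotated start of the gene. The bases are the 250 upstream of the start from the RefSeq table for GRCm38.p6, 5′ to 3′ in the direction of the gene, on chr3:20242182-20242431 of the minus strand for Cpa3 and on chr2:150570165-150570414 of the plus strand for Cst7. Capitals mark letters that match, on either strand, AGGAAGT for PU.1 and other ETS factors, TGTGGT for RUNX factors, AGATAA for factors of the GATA family or TTGCNNAA for C/EBP factors.
Cpa3: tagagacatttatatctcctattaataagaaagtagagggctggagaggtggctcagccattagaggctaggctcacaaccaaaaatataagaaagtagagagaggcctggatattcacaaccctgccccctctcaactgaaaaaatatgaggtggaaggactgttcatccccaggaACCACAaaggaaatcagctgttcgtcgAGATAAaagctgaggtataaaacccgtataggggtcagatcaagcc
Cst7: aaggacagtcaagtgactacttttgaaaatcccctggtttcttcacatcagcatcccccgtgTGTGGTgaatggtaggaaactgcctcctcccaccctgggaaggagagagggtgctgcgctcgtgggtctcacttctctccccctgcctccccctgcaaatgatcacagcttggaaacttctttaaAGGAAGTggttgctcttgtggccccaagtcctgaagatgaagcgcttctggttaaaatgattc

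The Cpa3 window held a GATA word whose first letter lay 46 bases before the start and a RUNX word, read on the other strand, at 73 bases. In the Cst7 window a PU.1 word began 63 bases and a RUNX word 188 bases before the start. The table held windows for 7 of the 10 genes, with Emilin2 listed at a second start, and the PU.1 word was found in 3 (Cst7, Lyz2 and Mpo) against 7.69% of all 32851 windows. The RUNX word was also found in 3 of the 7 (Cpa3, Cst7 and Lyz2) against 14.0%, the GATA word in 1 against 9.99%, and the C/EBP word in 0 against 9.56%. No 2 of the words overlapped in these windows, and a match of letters is a description only.

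The first comparison asks how the genes changed from DN2 to DN3 in WT thymocytes. In WT cells 7 of the 10 genes fell, against 2.22% of all genes tested called lower (edgeR's quasi-likelihood test, adjusted p under 0.05). These were Mpo, Cpa3, Tyrobp, Fcer1g, Cst7, Napsa and Emilin2, while Lyz2, Csf1r and Itgam were not called. The median log2 fold change was −5.65 over the 10 genes and 0.01 over all genes tested. Every DN2 WT library lay above every DN3 WT library for all 10 genes, as it did for 17.3% of all genes. The 10 genes were listed as ones that early thymocytes still transcribe and were chosen with earlier results of these data known. Their higher share than that of all genes is therefore not an independent test. In bulk RNA, fewer cells of a type and less RNA per cell cannot be told apart.

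**Figure D1:**
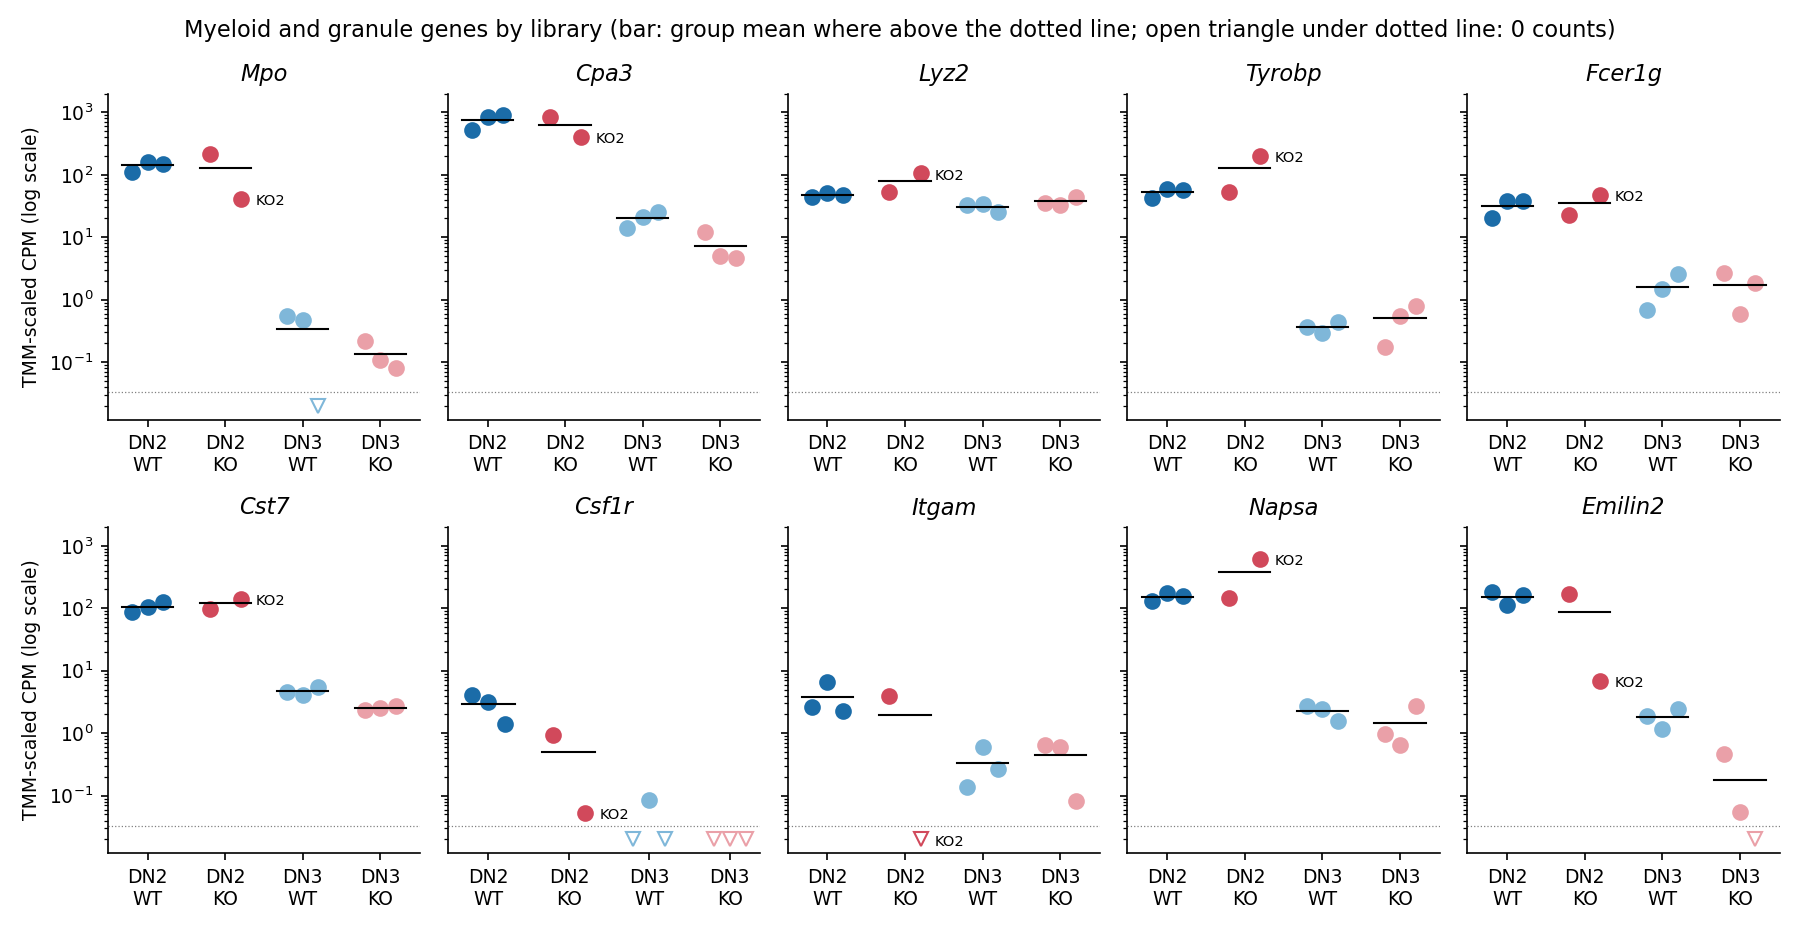
TMM-scaled CPM on a log axis for each of the 10 genes, with 1 point per library in the groups DN2 WT, DN2 KO, DN3 WT and DN3 KO and a bar at the group mean. Open triangles under the dotted line are libraries with 0 counts, and the DN2 KO2 point is marked, lying above the other DN2 libraries in 5 panels and below them in 5.

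Of the granule enzymes, Mpo (ENSMUSG00000009350, chromosome 11 of GRCm38, 87793581 to 87804413), which makes hypochlorous acid in neutrophil granules, had 111, 162 and 151 CPM in DN2 WT1, WT2 and WT3 and 0.548, 0.469 and 0 CPM in DN3 WT1, WT2 and WT3. All DN2 WT libraries were high and all DN3 WT libraries held at most 12 counts. The log2 fold change was −8.68 (SE 1.04, adjusted p = 0.00157 by edgeR), and 19 genes of all tested had a lower one. Summed over the group, 10060 counts in DN2 and 23 in DN3 gave a ratio of CPM of 419 (95% interval of counting error 279 to 661).

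Cpa3 (ENSMUSG00000001865, chromosome 3, 20215620 to 20242181), a protease of mast cell granules that is also transcribed in early progenitors, was the most abundant of the 10 genes on TPM in the DN2 WT and DN2 KO1 libraries, while in DN2 KO2 its 153 TPM came after Tyrobp (226 TPM) and Napsa (214 TPM). It had 512, 839 and 910 CPM in DN2 WT and 13.9, 21.4 and 25.3 CPM in DN3 WT replicates 1, 2 and 3. Both groups were tight relative to the gap between them, and the DN3 level remained well above 0. The log2 fold change was −5.22 (SE 0.53, adjusted p = 0.000686 by edgeR).

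Lyz2 (ENSMUSG00000069516, chromosome 10, 117277331 to 117282321), the lysozyme of macrophages and neutrophils, had 43.5, 51.9 and 46.6 CPM in DN2 WT and 33.04, 34.2 and 25.5 CPM in DN3 WT replicates. The groups did not overlap, but the difference was small, with a log2 fold change of −0.61 ± 0.30 (SE, edgeR adjusted p = 0.427). Its neighbour and close paralog Lyz1 had at most 2.02 estimated counts in any library, although reads shared between near-identical genes are split by the counting and the level of Lyz2 is uncertain to that extent.

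Of the ITAM adaptors, Tyrobp (ENSMUSG00000030579, chromosome 7, 30413760 to 30417585), the partner of TREM and NK receptors, had 43.2, 59.8 and 57.3 CPM in DN2 WT and 0.365, 0.298 and 0.442 CPM in DN3 WT replicates. It was nearly lost in DN3, with a log2 fold change of −7.16 ± 0.69 (SE, edgeR adjusted p = 0.000469). Fcer1g (ENSMUSG00000058715, chromosome 1, 171229572 to 171234365), the signalling chain of IgE and IgG receptors, had 20.5, 37.6 and 37.3 CPM in DN2 WT and 0.685, 1.49 and 2.61 CPM in DN3 WT replicates. The lowest DN2 WT library was still far above the highest DN3 WT library, and the log2 fold change was −4.31 (SE 0.68, adjusted p = 0.00599 by edgeR).

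Of the endolysosomal genes, Cst7 (ENSMUSG00000068129, chromosome 2, 150570415 to 150578944) had 86.9, 103 and 124 CPM in DN2 WT and 4.61, 4.05 and 5.57 CPM in DN3 WT replicates. Its log2 fold change of −4.46 (SE 0.30) had the lowest adjusted p of the 10 genes, 0.000117 by edgeR. Napsa (ENSMUSG00000002204, chromosome 7, 44572380 to 44586862) had 132, 173 and 157 CPM in DN2 WT and 2.74, 2.47 and 1.59 CPM in DN3 WT replicates. The log2 fold change was −6.08 (SE 0.70, adjusted p = 0.00141 by edgeR), with tight libraries in both groups.

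Of the surface and matrix genes, Emilin2 (ENSMUSG00000024053, chromosome 17, 71252172 to 71311978) had 180.3, 111 and 165 CPM in DN2 WT and 1.87, 1.15 and 2.48 CPM in DN3 WT replicates. The log2 fold change was −6.37 (SE 1.16, adjusted p = 0.0131 by edgeR), and with any 1 of the 3 DN3 WT libraries left out the adjusted p was 0.0687 to 0.0821. Csf1r had 4.14, 3.14 and 1.38 CPM in DN2 WT and 0, 0.0852 and 0 CPM in DN3 WT replicates, that is 200 counts against 2. The libraries did not overlap and the ratio of CPM was 95.7 (95% interval of counting error 26.1 to 796), but the gene missed the threshold (adjusted p = 0.0586 by edgeR). Itgam (ENSMUSG00000030786, chromosome 7, 128062640 to 128118491) was also low, with 2.66, 6.63 and 2.26 CPM in DN2 WT and 0.137, 0.597 and 0.265 CPM in DN3 WT replicates (adjusted p = 0.309 by edgeR). The DN2 WT libraries lay above the DN3 WT libraries for both receptors, with at most 6.63 CPM in any library.

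The same question was asked in KO thymocytes. There, too, 7 of the 10 genes fell, against 2.92% of all genes called lower, and they were the same 7 genes as in WT. The limit set by the choice of the list applies here as well. The median log2 fold change was −6.48 over the 10 genes and 0.03 over all. With DN2 KO2 and DN3 KO3, the libraries that stood apart, both left out, the 7 genes kept their direction. Only DN2 KO1 then remained for DN2 KO. Fitted to the DN2 and DN3 KO libraries alone, edgeR called 0 of the 10 genes and 0 of all genes, while DESeq2 on the 4 groups called 9 of the 10. The share of all genes that DESeq2 called in KO is not given, so the 9 cannot be set beside it.

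In KO cells Mpo had 219 and 41.3 CPM in DN2 KO1 and KO2 and 0.215, 0.109 and 0.0807 CPM in DN3 KO1, KO2 and KO3 (log2 fold change −9.77, SE 1.13, adjusted p = 0.0014 by edgeR). The DN3 libraries held 8 counts of Mpo in all against 7114 in DN2, a ratio of CPM of 765 with a 95% interval of counting error of 388 to 1770. Cpa3 had 841 and 400.2 CPM in DN2 KO and 11.9, 5.01 and 4.60 CPM in DN3 KO libraries (log2 fold change −6.43, SE 0.58, adjusted p = 0.000401 by edgeR). Every DN2 library of either genotype was above every DN3 library for the 7 called genes, which was so for 5.73% of all genes tested.

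Napsa had 143 and 609 CPM in DN2 KO and 0.988, 0.653 and 2.74 CPM in DN3 KO libraries, with a log2 fold change of −8.04 ± 0.79 (SE, edgeR adjusted p = 0.000566). Tyrobp had 53.2 and 203 CPM in DN2 KO and 0.172, 0.545 and 0.807 CPM in DN3 KO libraries (log2 fold change −8.04, SE 0.73, adjusted p = 0.000403 by edgeR). For both genes KO2 was well above KO1, and both libraries were far above DN3. Cst7 had 97.1 and 141 CPM in DN2 KO and 2.32, 2.50 and 2.74 CPM in DN3 KO libraries, and its log2 fold change was −5.56 (SE 0.32, adjusted p = 3.44e-05 by edgeR).

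Fcer1g had 22.8 and 47.9 CPM in DN2 KO and 2.66, 0.599 and 1.86 CPM in DN3 KO libraries, with a log2 fold change of −4.36 ± 0.70 (SE, edgeR adjusted p = 0.00699). Emilin2 had 169 and 6.82 CPM in DN2 KO and 0.473, 0.0544 and 0 CPM in DN3 KO libraries (log2 fold change −8.72, SE 1.37, adjusted p = 0.00591 by edgeR). DN2 KO2 was thus low for Emilin2, yet above every DN3 library. In KO the call of Fcer1g was lost with limma voom (adjusted p = 0.053) and with genotype and replicate number as a block (adjusted p = 0.0863 by edgeR), and that of Emilin2 was lost with limma on log2(TPM + 1) (log2 fold change −3.57, adjusted p = 0.108).

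Lyz2 had 53.3 and 105 CPM in DN2 KO and 34.8, 32.7 and 44.9 CPM in DN3 KO libraries, which did not overlap, with a log2 fold change of −1.08 ± 0.33 (SE, edgeR adjusted p = 0.102). Csf1r had 0.944 and 0.0535 CPM in DN2 KO and 0 counts in all 3 DN3 KO libraries, so that it was at least 7.45-fold lower in DN3 with a floor of 3 counts over the group (adjusted p = 0.125 by edgeR). Itgam had 3.97 and 0 CPM in DN2 KO and 0.644, 0.599 and 0.0807 CPM in DN3 KO libraries, and these overlapped because DN2 KO2 held no count of it (adjusted p = 0.446 by edgeR). The direction for Itgam turned with the fit, from −2.11 to 2.11 on the log2 scale with limma voom (adjusted p = 0.801). Without DN2 KO1, which leaves KO2 with its 0 counts as the only DN2 KO library, Itgam was called higher in DN3 (adjusted p = 0.0276 by edgeR).

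**Figure D2:**
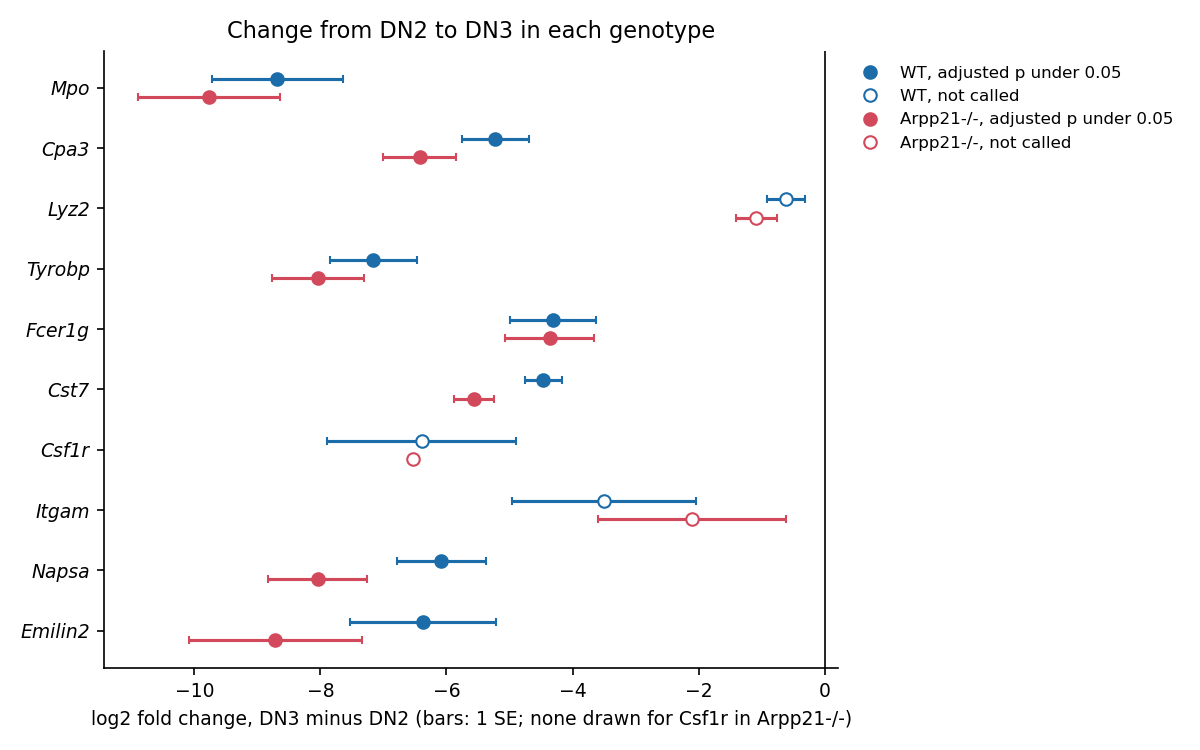
log2 fold change of DN3 against DN2 on the horizontal axis for the 10 genes, in WT (blue) and Arpp21-/- (red), with bars of 1 SE and filled points for an adjusted p under 0.05 by edgeR. The 7 called genes lie between −9.77 and −4.31, Lyz2 lies nearest to 0, and no SE is drawn for Csf1r in Arpp21-/-, whose DN3 libraries held 0 counts, so that its point depends on the prior count.

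The levels were ranked per length by TPM. In DN2 WT, Cpa3 led with 780 ± 187 TPM (SD, n = 3), place 200 among all genes, and did not overlap with the next gene. Cst7 (168 ± 27.3 TPM), Tyrobp (158 ± 20.6 TPM) and Napsa (148 ± 7.93 TPM) followed and overlapped with their neighbours in that order. Below a gap came Mpo (86.6 ± 12.5 TPM), Fcer1g (80.0 ± 21.9 TPM), Emilin2 (61.1 ± 19.6 TPM) and Lyz2 (54.5 ± 1.29 TPM), again overlapping from each to the next. Itgam (1.13 ± 0.625 TPM) and Csf1r (1.10 ± 0.627 TPM) stood far below, so that the macrophage receptor and the integrin chain were close to absent where the granule and adaptor genes were abundant. In DN3 WT the order changed, with Lyz2 first (38.8 ± 4.79 TPM) and Cpa3 second (22.9 ± 6.93 TPM), and no other of the 10 genes above 8.35 TPM on average.

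The 10 genes together made up 1136 to 1653 CPM in each DN2 library and 42.8 to 66.2 CPM in each DN3 library. Cpa3 took 45.1% to 55.1% of that sum in 4 DN2 libraries and 25.7% in DN2 KO2, whose sum of 1555 CPM lay within the range of the others. On the TPM scale the sum of DN2 KO2 was 778, against 1263 to 1771 in the other DN2 libraries. DN2 KO2 thus stood apart in how the sum was divided rather than in its size on the CPM scale.

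At the level of transcripts, Cpa3-201 held 98.7% to 99.6%, Napsa-201 96.7% to 99.7% and Fcer1g-201 all of the TPM of their gene in DN2 WT. Tyrobp-202 held 85.7% to 99.1%. Mpo was split, with Mpo-203 at 57.3% to 63.7% in DN2 WT and 57.4% to 77.6% in DN2 KO, and Emilin2-203 held 61.0% to 72.7% of the TPM of 11 annotated transcripts. Lyz2 and Cst7 have a single annotated transcript. The split between transcripts of 1 gene is an estimate made by kallisto and carries no error here.

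The second comparison asks how KO differed from WT within DN2. Of the 10 genes 0 were called by edgeR, as were 0.0% of all genes, and 2 of the 10 had an unadjusted p under 0.05, against 14.7% of all genes. DESeq2 and limma voom also called 0 of the 10. In simulated data with the fitted spread, edgeR called 4% of 4-fold changes in this comparison, so genes not called may still differ. The genes nearest to the threshold were Tyrobp (log2 fold change 1.26, SE 0.56, adjusted p = 0.34 by edgeR) and Lyz2 (log2 fold change 0.74, SE 0.33, adjusted p = 0.339 by edgeR), the latter turning to −0.03 on log2(TPM + 1). Napsa had 1.29 (SE 0.62, adjusted p = 0.357 by edgeR). Cpa3 had −0.28 (SE 0.50), Mpo −0.12 (SE 0.81), Emilin2 −0.79 (SE 1.05), Cst7 0.19 (SE 0.28) and Fcer1g 0.15 (SE 0.65), the last 2 turning negative on log2(TPM + 1), with −0.51 and −0.56.

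These values are averages of a pair of libraries that did not resemble each other. The median SD of log2 CPM of the 10 genes was 1.42 in DN2 KO and 0.33 in DN2 WT, against 0.99 and 0.24 over 8510 genes. The ratio of the CPM of DN2 KO1 to the mean of DN2 WT was 0.927 to 1.13 for Cst7, Napsa, Tyrobp, Itgam, Emilin2, Cpa3 and Lyz2, and was 1.55 for Mpo, 0.716 for Fcer1g and 0.327 for Csf1r. KO1 was above every DN2 WT library for Mpo and Lyz2, against 18.1% of all genes, and below every one for Csf1r, against 17.8%. Both KO libraries were above every WT library on CPM for Lyz2 alone of the 10 (7.53% of all genes) and below for Csf1r alone (8.28%). Neither order held on TPM. Csf1r had 1.03 TPM in KO1 against 0.492 to 1.74 TPM in DN2 WT. Lyz2 had 44.6 TPM in KO2 against 53.6 to 56.0 TPM in DN2 WT. Without KO2, 0 of the 10 were called and the log2 fold change became 0.01 for Tyrobp, −0.08 for Napsa, 0.65 for Mpo and 0.17 for Emilin2. Without KO1, 6 were called, with the lone KO2 assumed to vary like the other groups, and so were 6777 of all genes.

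DN2 KO2 divided the 10 genes evenly. It lay above every other DN2 library for Lyz2, Tyrobp, Fcer1g, Cst7 and Napsa and below every other for Mpo, Cpa3, Csf1r, Itgam and Emilin2. These 5 and 5 of 10 compare with 37.8% of all genes above and 39.8% below. Against the mean of DN2 WT, the CPM of KO2 was 3.96 times as high for Napsa, 3.80 times for Tyrobp, 2.22 times for Lyz2, 1.51 times for Fcer1g and 1.35 times for Cst7. It was 0.531 of the WT mean for Cpa3, 0.292 for Mpo, 0.0448 for Emilin2 and 0.0185 for Csf1r, the last from 2 counts, and Itgam had 0 counts.

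The division went with transcript length, apart from the order of Napsa and Cpa3. The genes that were high in KO2 had mean transcript lengths of 596 nt (Tyrobp), 674 nt (Fcer1g), 986 nt (Cst7), 1316 nt (Lyz2) and 1558 nt (Napsa), and those that were low had 1447 nt (Cpa3), 2504 nt (Mpo), 3886 nt (Emilin2), 3972 nt (Csf1r) and 4559 nt (Itgam). Across the 10 genes, Pearson's r between log2 length and the log2 difference of KO2 from WT was −0.895 and Spearman's rho −0.77, given as a description of genes that share 1 library. Across all 13780 genes r was −0.504 and rho −0.565, and for DN2 KO1 r was −0.058. The median log2 difference of KO2 from WT over all genes was 1.62 under 700 nt, 1.43 from 700 to 1400 nt, 0.38 from 1400 to 2800 nt, −1.16 from 2800 to 5600 nt and −1.90 over 5600 nt. Offsets for length were used in alternative fits given below, but whether length was the cause of a difference between genotypes was not tested.

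**Figure D3:**
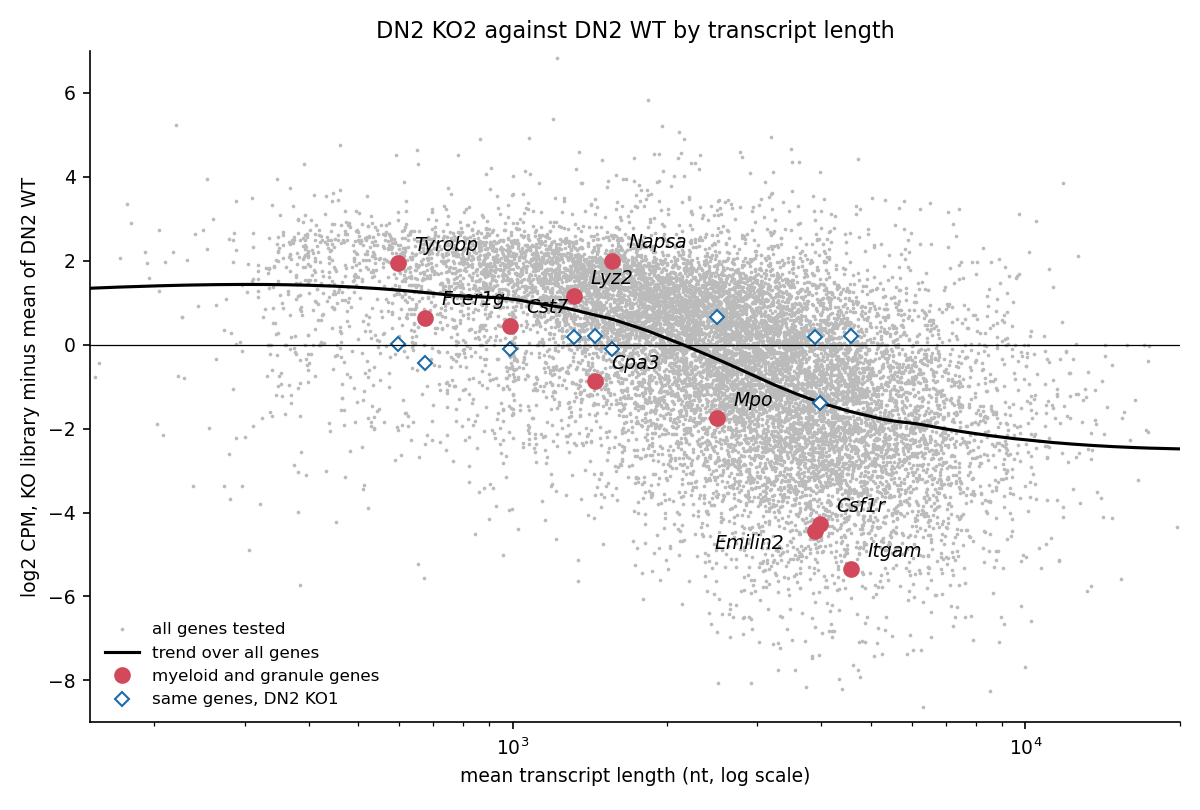
log2 CPM of DN2 KO2 minus the mean of DN2 WT against mean transcript length in nt on a log axis, for all genes tested (grey), the trend over all genes (line) and the 10 genes (red), with DN2 KO1 minus WT for the same 10 genes as open diamonds. The red points run from 1.99 for Napsa and 1.94 for Tyrobp to −5.35 for Itgam. The diamonds lie between −0.43 for Fcer1g and 0.65 for Mpo, except for Csf1r at −1.40.

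Set beside genes of like length, within 0.25 on the log2 scale, the 10 genes in KO2 were not all alike. Napsa was above 88.0% of 1823 genes of like length, Tyrobp above 57.8% and Lyz2 above 48.9%. Cst7 was above 23.5%, Fcer1g above 21.7%, Mpo above 18.2% and Cpa3 above 12.2% of such genes, and Csf1r, Emilin2 and Itgam were above 6.6%, 6.0% and 2.8%. Less the trend over length, KO2 was above every other DN2 library for Lyz2, Tyrobp and Napsa (44.0% of all genes) and below for the other 7 (32.4%). On TPM it was above for Tyrobp and Napsa (12.2%) and below for the other 8 (63.6%), and on CPM of the library total above for Lyz2, Tyrobp and Napsa (22.6%) and below for 6 (52.9%), with Fcer1g between. Over all genes the median log2 difference of KO2 from WT was −0.12 on TMM-scaled CPM, −0.60 on CPM of the library total and −0.88 on TPM. Tyrobp and Napsa were above the other DN2 libraries, and Mpo, Cpa3, Csf1r, Itgam and Emilin2 below them, on each of these 4 scales. The share of all genes that kept their side on all 4 scales was not counted, so this is a description only.

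The third comparison asks how KO differed from WT within DN3. Here 0 of the 10 genes were called by edgeR against 0.00726% of all genes, with adjusted p values of 1, and 3 had an unadjusted p under 0.05 against 1.55%. DESeq2 and limma voom called 0 of the 10. The 3 genes were Cst7, Cpa3 and Emilin2, and for these same 3 every KO library lay below every WT library, which held for 5.57% of all genes. Cpa3 had 13.9 to 25.3 CPM in WT and 4.60 to 11.9 CPM in KO libraries, a log2 fold change of −1.48 (SE 0.46). Cst7 had 4.05 to 5.57 CPM in WT and 2.32 to 2.74 CPM in KO libraries, a log2 fold change of −0.91 (SE 0.27). Emilin2 had 1.15 to 2.48 CPM in WT and 0 to 0.473 CPM in KO libraries, and its log2 fold change of −3.14 (SE 1.18) rests on 12 counts in KO. The directions of these 3 held in every alternative, while none passed the threshold in any.

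Mpo had at most 0.548 CPM in any DN3 library and Tyrobp at most 0.807 CPM, which is a few counts per library and limits what could be detected at this depth. Napsa had a log2 fold change of −0.67 (SE 0.61), Lyz2 0.28 (SE 0.30), Tyrobp 0.39 (SE 0.64) and Fcer1g 0.10 (SE 0.62), the last turning to −0.12 on log2(TPM + 1). The median over the 10 genes was −0.79 and over all genes −0.01 on the log2 scale. In DN3 KO3, the other library that stood apart, Cpa3 had its lowest level of the DN3 libraries on CPM and on TPM. Tyrobp and Lyz2 had their highest CPM there, but on TPM DN3 KO2 was higher for Tyrobp (1.79 against 1.63) and DN3 KO1 for Lyz2 (44.9 against 34.1). Without KO3 and DN2 KO2 the log2 fold change was −1.25 for Cpa3, −0.98 for Cst7, −2.67 for Emilin2 and −0.10 for Tyrobp.

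Whether the genotype difference changed between stages was tested as an interaction, the log2 fold change of KO against WT in DN3 minus that in DN2. Of the 10 genes 0 were called by edgeR, as were 0.0% of all genes, and 2 had an unadjusted p under 0.05 against 2.71% of all genes. DESeq2 and limma voom called 0 of the 10. The pair were Cst7, with a difference of −1.10 (SE 0.39), and Napsa, with −1.96 (SE 0.87), both with an adjusted p of 0.964 by edgeR. The comparisons share their libraries with those above.

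Genes of the same programmes were then examined from fixed lists, to show how the 10 genes stood among them. The share of all genes called lower, against which the counts of falling genes can be read, was 2.22% in WT and 2.92% in KO. The share called higher is not given, so calls of higher genes, as for the DN3 stage genes, Zap70 and Gzma, are a description only. Of 10 further primary granule genes 7 were tested, and 4 fell in WT and 5 in KO, with a median log2 fold change of −2.62 in WT. The azurophil granule protease Ctsg had 4.92 to 7.70 CPM in DN2 WT and 0 counts in every DN3 library (adjusted p = 0.01 by edgeR in WT). Cd63, a tetraspanin of granule membranes, fell from 4.32 to 8.70 CPM in DN2 WT to at most 0.256 CPM in DN3 WT (log2 fold change −5.53, SE 0.91, adjusted p = 0.00772 by edgeR). Serpinb1a, an inhibitor of neutrophil serine proteases, fell from 211 to 261 CPM to between 25.9 and 32.4 CPM (adjusted p = 0.00255 by edgeR). Plac8 had a log2 fold change of −2.62 ± 0.62 (SE, edgeR adjusted p = 0.0421), a call lost in 11 of 24 alternatives, among them each of the 6 WT libraries left out, with an adjusted p of up to 0.187. The call of Cd63 in WT was lost without DN3 WT1 (adjusted p = 0.0511). The 3 tested genes not called in WT were Prss57, Srgn and Ctsc. Prss57 went the other way, with 139 to 162 CPM in DN2 WT and 271 to 281 CPM in DN3 WT. Its log2 fold change was 0.87 (SE 0.47, adjusted p = 0.508 by edgeR), against −1.435 for Srgn and −0.326 for Ctsc. Elane, the neutrophil elastase, was under 1 count in every library.

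Of 12 mast cell and basophil genes 7 were tested and 2 fell in both genotypes. Gzmb, a granule serine protease, had 3.57 to 5.404 CPM in DN2 WT, and Mcpt8, a protease of basophils, had 0.610 to 1.45 CPM, with 0 counts of either in every DN3 library (adjusted p of 0.00624 and 0.0311 by edgeR in WT). The call of Mcpt8 in WT was lost with any 1 of the 6 WT libraries left out, with an adjusted p of up to 0.22 over all alternatives. Kit, the stem cell factor receptor, had 446 to 512 CPM in DN2 WT and 60.0 to 97.3 CPM in DN3 WT (adjusted p = 0.0665 by edgeR). The IgE receptor chain Fcer1a and the mast cell proteases Tpsb2, Tpsab1 and Cma1 were under 1 count in every library. Cpa3 was abundant in DN2 without these proteases, while Gzmb and Mcpt8 of the same list were present there at low levels. The sum of the mast cell list, mostly Kit, was 455 to 520 CPM in DN2 WT and 62.1 to 100.9 CPM in DN3 WT, and its part in the result was not tested.

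Of 9 myeloid transcription factors 3 were tested and 1 fell. Spi1 (PU.1), which drives myeloid genes and declines as thymocytes commit, had 38.0 to 47.3 CPM in DN2 WT, 44.6 and 42.7 CPM in DN2 KO and 1.19 to 3.79 CPM in DN3 WT (log2 fold change −4.25, SE 0.51, adjusted p = 0.00155 by edgeR). The DN2 KO libraries were within the range of DN2 WT for Spi1. Irf8 had 7.77 to 19.4 CPM in DN2 WT and 15.8 to 20.3 CPM in DN3 WT (adjusted p = 0.927 by edgeR), and Cebpa, a factor of the granulocyte lineage, had at most 0.565 CPM in any library.

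Of 13 receptors and kinases of the ITAM pathway 9 were tested. Fcgr3, an IgG receptor that needs Fcer1g, fell from 0.636 to 1.57 CPM in DN2 WT to 0 counts in DN3 WT (adjusted p = 0.0305 by edgeR). Btk fell from 53.2 to 69.9 CPM to 3.01 to 3.62 CPM (log2 fold change −4.27, SE 0.81, adjusted p = 0.0159 by edgeR). Zap70, the ITAM kinase of the T cell receptor, rose from 6.78 to 14.7 CPM to 54.2 to 81.7 CPM (log2 fold change 2.62, SE 0.37, adjusted p = 0.00381 by edgeR). The same 3 genes were called in the same directions in KO. In WT the call of Fcgr3 was lost with any 1 of the 6 WT libraries left out and that of Btk with any 1 of the 3 DN3 WT libraries left out, with an adjusted p of up to 0.174 and 0.0887 over all alternatives. In KO the calls of Fcgr3 and Btk were lost in 16 of 23 and 14 of 24 alternatives.

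Of 11 lysosomal proteases and inhibitors tested 0 were called in WT by edgeR, and 2 fell in KO, Ctss (log2 fold change −5.58, SE 1.29, adjusted p = 0.0405 by edgeR) and Ctsw (log2 fold change −1.64, SE 0.30, adjusted p = 0.0129 by edgeR). The call of Ctss was lost in 17 of 23 alternatives and that of Ctsw in 7 of 24, with an adjusted p of up to 0.331 and 0.475, and without DN2 KO2 Ctss had a log2 fold change of −2.70. Ctsd had 393 to 447 CPM in DN2 WT and 489.5 to 513.5 CPM in DN3 WT, and Psap had 300.1 to 452 and 599 to 804 CPM (adjusted p = 0.75 and 0.232 by edgeR). Of the CSF and related cytokine receptors 5 were tested and 0 called in either genotype, with Csf2ra at 9.50 to 13.8 CPM in DN2 WT and 6.59 to 9.25 CPM in DN3 WT. Of the integrin chains and emilins 5 were tested and 0 called, and Itgb2, the β chain that pairs with Itgam, had 35.7 to 44.8 CPM in DN2 WT and 36.8 to 44.3 CPM in DN3 WT, while Emilin1 had 128.5 to 169 and 146 to 174 CPM. Itgax (CD11c) of the same list had 14.9 to 24.8 CPM in DN2 WT and 0.133 to 0.958 CPM in DN3 WT, a gap without overlap that missed the threshold (log2 fold change −5.33, SE 1.41, adjusted p = 0.0675 by edgeR).

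**Figure D4:**
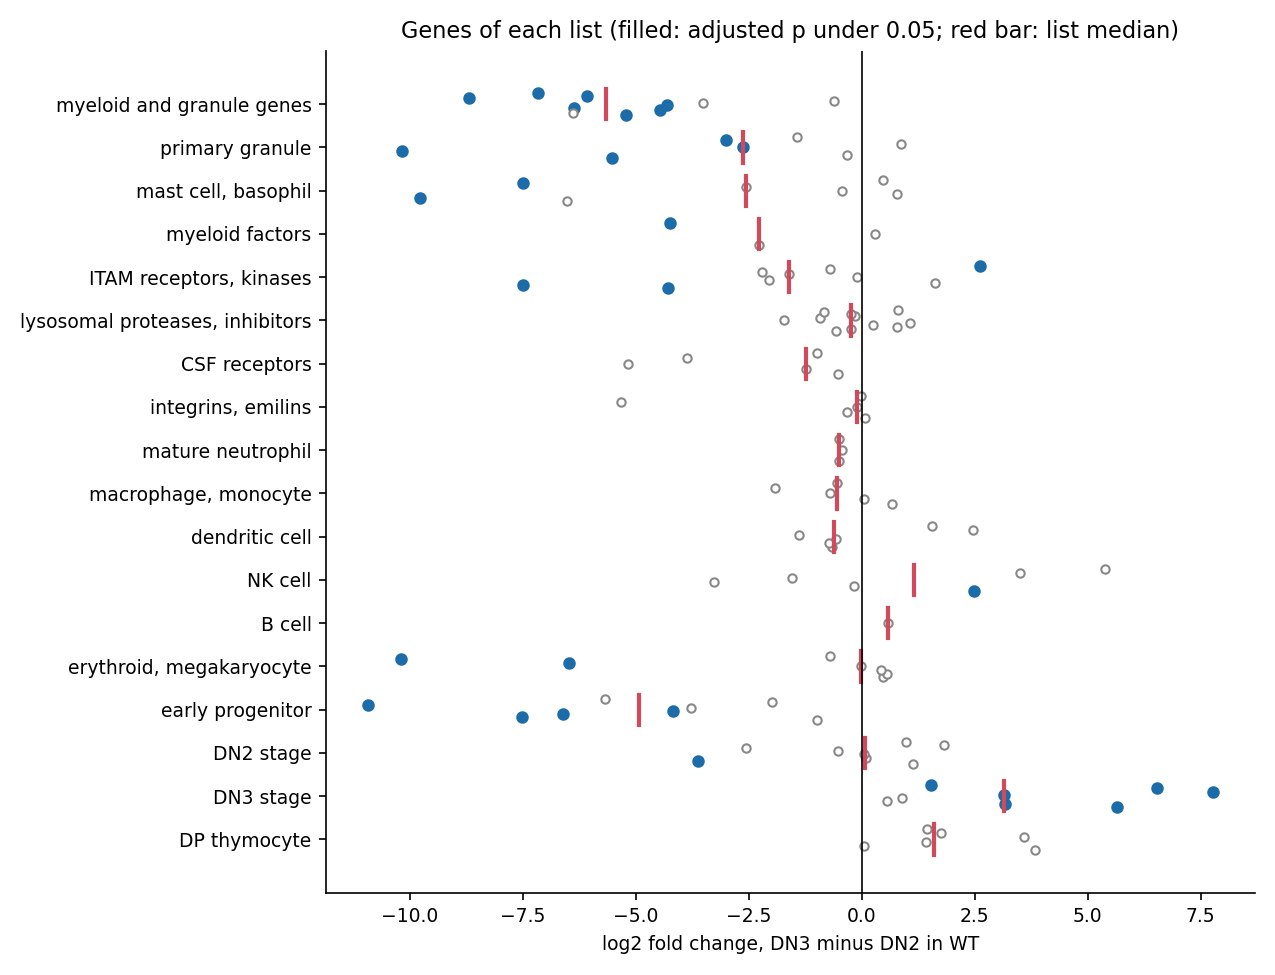
log2 fold change of DN3 against DN2 in WT for each tested gene of the 10-gene set and of 17 comparison lists, with filled points for an adjusted p under 0.05 by edgeR and a red bar at the median of the list. The 10-gene set has a median of −5.65 and the early progenitor list one of −4.93, while the lists of mature myeloid cells lie near 0 with no filled point.

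Markers of mature myeloid and other cells were examined because the sorted cells could include them. Of 9 mature neutrophil genes 3 were tested and 0 called by edgeR, and their summed level was 0.436 to 2.95 CPM in DN2 WT, 0.118 and 5.61 CPM in DN2 KO and 0.49 to 2.71 CPM over the DN3 libraries, with S100a9 at most 0.92 CPM. Of 10 macrophage and monocyte genes 5 were tested and 0 called, with sums of 5.33 to 6.63 CPM in DN2 WT, 5.54 and 6.28 CPM in DN2 KO and 4.08 to 5.92 CPM in DN3, and Cd14 was under 1 count in every library. Of 8 dendritic cell genes 6 were tested and 0 called, with sums of 24.8 to 45.0 CPM in DN2 WT, 26.5 and 48.0 CPM in DN2 KO and 14.7 to 25.3 CPM in DN3, mostly H2-Ab1, and Clec9a was under 1 count. The sums of these 3 lists overlapped between DN2 and DN3 libraries, those of the dendritic cell list only between 24.8 and 25.3 CPM. For that list both DN2 KO libraries lay above every DN3 library. Itgax (CD11c), given above, was not part of these lists. The part of mature myeloid cells in the results was not tested.

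Of the NK cell list 6 were tested, and Gzma rose in WT (log2 fold change 2.48, SE 0.52, adjusted p = 0.0264 by edgeR) a call lost with any 1 of the 6 WT libraries left out (adjusted p of up to 0.108), and Nkg7 fell in KO (log2 fold change −3.24, SE 0.56, adjusted p = 0.00959 by edgeR), with 304 to 338 CPM of Nkg7 in DN2 WT and 1652 CPM in DN2 KO2. The call of Nkg7 was lost without DN3 KO1 or DN3 KO2 (adjusted p = 0.0556 and 0.0558). Of the B cell list 1 gene, Cd79b, was tested and not called. Of the erythroid and megakaryocyte list 7 were tested and 2 fell in both genotypes, Hbb-bt (log2 fold change −6.46 in WT, SE 0.80, adjusted p = 0.00199 by edgeR) and Itga2b (19.4 to 25.7 CPM in DN2 WT and at most 0.0426 CPM in DN3 WT, adjusted p = 0.00102 by edgeR). Hba-a1 and Hba-a2, the α globins, were not called and had 26.8 and 46.4 CPM in DN2 KO1 and 72.0 and 101.3 CPM in DN2 KO2, against at most 16.4 and 25.1 CPM in DN2 WT. The part of red blood cell RNA in the results was not tested.

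Of 8 early progenitor genes, all tested, 4 fell in WT and 5 in KO. Lyl1 had 8.23 to 12.5 CPM in DN2 WT and 0 counts in every DN3 library (adjusted p = 0.0017 by edgeR). Cd34, a surface antigen of progenitors, fell with a log2 fold change of −7.51 ± 0.72 (SE, edgeR adjusted p = 0.000467), Hhex with −6.61 (SE 0.60, adjusted p = 0.000452 by edgeR) and Hoxa9 with −4.18 (SE 0.97, adjusted p = 0.0411 by edgeR). The call of Hoxa9 was lost in 13 of 23 alternatives, with an adjusted p of up to 0.165. Of 8 genes of the DN2 stage only Cd44, whose protein serves to separate the stages, was called (log2 fold change −3.62, SE 0.40, adjusted p = 0.00117 by edgeR). Of 6 DP thymocyte genes 0 were called by edgeR in WT or KO, and Themis had 117 to 137 CPM in DN2 WT and 377 to 476 CPM in DN3 WT (adjusted p = 0.077 by edgeR). For all lists 0 genes were called by edgeR between genotypes in DN2, in DN3 or in the interaction.

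The pattern of the 10 genes over the 11 libraries was described by the mean of their standardised log2 CPM. Among 8502 genes with a mean of at least 10 CPM, the 10 most like it were Adgrg3 and Igfbp4 (Pearson's r 0.99 each), Ctps2 (0.988), Fgf3 and Itga2b (0.987 each), Litaf and Serpina3g (0.986 each), Trim16 (0.985), Slc25a24 (0.984) and Pim1 (0.983). Adgrg3, an adhesion G protein-coupled receptor known from granulocytes, had a mean of 265 CPM in DN2 WT and 3.67 CPM in DN3 WT. Igfbp4, which binds insulin-like growth factors, had 376 and 9.56 CPM. Serpina3g, a serine protease inhibitor, had 24.0 and 0.0852 CPM, and Fgf3, a fibroblast growth factor, had 48.5 and 0 CPM. These r values share the contrast of DN2 and DN3 and are a description. Between pairs of the 10 genes over the same libraries, r was 0.375 to 0.985 with a median of 0.899 in the 36 pairs without Lyz2 and −0.067 to 0.816 with a median of 0.664 in the 9 pairs with it.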

How the data were processed

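RNA of sorted DN2 and DN3 thymocytes was sequenced as paired-end reads of 150 bp from SmartSeq V4 and Nextera libraries, from total RNA per the labels and with poly-A selection per the study's methods. The deposited data are 1 kallisto 0.46 output per library, 11 in all, quantified by the authors on Ensembl transcripts (GRCm38). The deposited estimated counts are the read pairs that kallisto assigned to each transcript, not normalized. The deposited TPM correct these for effective length and share 1 total across libraries. The effective lengths in the deposited tables were not used for tests other than the offset for average transcript length.

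Transcripts were matched by identifier to GENCODE M21 (116728 of 119414, leaving out 0.933% to 1.069% of counts), summed per gene and rounded. Genes were kept by filterByExpr (minimum count 10, minimum total 15) and tested with edgeR 4.0.16 in R 4.3.3 (TMM, glmQLFit, glmQLFTest, two-sided, 1 fit over 4 groups), with Benjamini-Hochberg adjustment over 13780 genes and calls at an adjusted p under 0.05. SE is the log2 fold change over the square root of F and is approximate. The scripts were tested on simulated data with 50 genes changed per fold. At the fitted spread, 4% of 4-fold and 56% of 16-fold changes were called for KO against WT in DN2. For DN3 against DN2 in WT these were 18% and 82%. A gene not called may therefore still differ.

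Alternatives were DESeq2 1.42.0, its size factors in edgeR, no filter, at least 10 CPM in 2 libraries, offsets for average length and for the length trend (loess span 0.5), limma 3.58.1 over 12548 genes on TPM in log2 with a pseudocount of 1 or of 0.1, voom with sample weights, only the 2 groups compared, replicate blocks and left-out libraries. The members, the 17 comparison lists and the alternatives were chosen with earlier results of these data known. Of the lists, genes past the threshold were named, at most 4 per list and comparison by size. Where none passed, at most 2 were named by mean CPM. Kit, Elane, Prss57, Srgn, Ctsc, Itgb2, Emilin1, Itgax, the α globins and genes named as absent were chosen after their values were seen. Further software was matplotlib 3.10.9, scipy 1.17.1, pandas 2.3.3 and numpy 2.4.6 under Python 3.11.15.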

Additional observations from a re-analysis of the deposited data

How the results depend on the processing

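Over the 24 alternatives to the main fit, 6 to 10 of the 10 genes were called lower in DN3 than in DN2 in WT and 0 to 9 in KO, and the directions of the 7 called genes held in all of them. With only the 2 groups compared, 0 genes were called in KO. With DESeq2, 8 were called in WT and 9 in KO, but in WT DESeq2 also called more of all genes than the main fit did. The number of genes for which DN2 KO2 lay above the other DN2 libraries was 2 on TPM, 3 on CPM of the library total and 3 less the length trend. With each library left out in turn, the number called was 6 to 9 in WT, 7 to 9 in KO, 0 to 6 for KO against WT in DN2, 0 in DN3 and 0 to 3 for the interaction, the highest values for DN2 and the interaction coming without DN2 KO1, where the lone KO2 was assumed to vary like the other groups. Genes called of all tested were 216 to 2324 for the stages in WT, 0 to 6754 in KO, 0 to 6777 for the genotypes in DN2, 0 to 118 in DN3 and 0 to 3664 for the interaction, and 38, 16 and 10 with DESeq2 in the last 3.

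Some directions turned, with the cause not tested, and of these only Itgam in KO without DN2 KO1 passed the threshold (6.414, adjusted p = 0.0276). In KO, Itgam from DN2 to DN3 had a log2 fold change of 2.11 with voom and 0.51 with genotype and replicate number as a block. For KO against WT in DN2, Lyz2 was −0.028 on log2(TPM + 1) and −0.029 on log2(TPM + 0.1), and Fcer1g and Cst7 were −0.47 and −0.32 with the offset for the length trend, −0.56 and −0.51 on log2(TPM + 1) and −0.56 and −0.51 on log2(TPM + 0.1). For KO against WT in DN3, Mpo was 0.037 with voom, and Fcer1g −0.02 with the length trend, −0.12 on log2(TPM + 1), −0.16 on log2(TPM + 0.1) and −0.70 with voom. With libraries left out, the log2 fold change of Itgam in KO ran from −3.133 to that value, and those of KO against WT in DN2 ran from −1.785 to 0.652 for Mpo, −0.923 to 0.181 for Cpa3, −0.465 to 0.581 for Fcer1g, −0.09 to 0.421 for Cst7, −9.475 to 0.065 for Itgam, −0.084 to 1.975 for Napsa and −4.489 to 0.17 for Emilin2, most of the ends coming without DN2 KO1 or KO2. In DN3 they ran from −0.105 to 0.848 for Tyrobp and −0.404 to 0.647 for Fcer1g.

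Deviations of same-numbered libraries correlated at −0.454 to 0.53 over 10 pairs, 8 of them over 0 and 6 over 0.1. Across stages in WT they were 0.289, 0.085 and 0.178, and each library correlated best with its own number, but not every pair was over 0.1 and the numbers were not taken as pairs. With the replicate number as a block 7 genes were called in WT and 7 in KO, and with genotype and replicate number as a replicate block 7 in WT and 6 in KO, with 0 for the interaction. Of the list genes named for a call, 10 of 22 in WT and 24 of 24 in KO lost it in at least 1 alternative, and none turned direction. Csf1r and Itgam held too few counts for a fold change between genotypes, and the depth of DN3 libraries limits Mpo, Tyrobp and Emilin2 there.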
